A study of Mus musculus with 19 samples.

Results

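The RNA of 8 claudins and 2 of their junctional partners were followed in mouse colon and colon tumours: Cldn1, Cldn2, Cldn3, Cldn4, Cldn7, Cldn8, Cldn15 and Cldn23, with Ocln (occludin) and Tjp1 (zonula occludens protein ZO-1). They were taken by symbol, on a list made with earlier results of these data known, and make up 10 of the 32694 genes measured. RNA of 3 groups of mice of 12 weeks of age was sequenced, 1 library per mouse. There were 5 libraries of wild-type colon (3 females, 2 males), 7 of tumours of the colon that arose after deletion of 1 Apc allele (3 females, 4 males), and 7 of such tumours from mice in which both alleles of Tgif1 and of Tgif2 were deleted as well (3 females, 4 males). The deletions were made by Villin-Cre, a recombinase driven in intestinal epithelium, so other cells of a tumour keep the genes. Each tumour library came from a single tumour. The groups are called wild-type colon, Apc tumours and Apc/Tgif tumours, and replicate numbers only name the libraries. Apc restrains Wnt signalling, and Tgif1 and Tgif2 are homeodomain repressors of transcription. No group carries the Tgif deletions without an Apc deletion, and normal colon of the mutant mice was not analysed here, so the deletion and the tumour state cannot be told apart against wild-type colon.

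Tight junctions seal the space between neighbouring epithelial cells. Claudins are the membrane proteins that form their strands, and the mix of claudins in a cell sets which ions and how much water can pass. Some claudins form pores for cations, others tighten the barrier, and scaffold proteins such as ZO-1 tie the strands to the actin cytoskeleton. In the gut, pore claudins are most used where absorption and secretion are high, as in crypts, and barrier claudins at the surface of the distal colon.

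Values are the authors' normalized counts. Differences are on the log2(normalized count + 1) scale from limma, with adjusted p over all 18445 genes tested, and a gene is said to have risen or fallen where its adjusted p was under 0.05. All 10 members passed the filter on low values, and none was listed at 0 in any library. Totals lay between 34417808 and 44732717 normalized counts per library. Tgif1 had 2785 to 4965 normalized counts in the Apc tumours, and its 251 to 654 in Apc/Tgif tumours lay below all of them. The whole-gene value of Tgif2 went the other way, from 476 to 764 in Apc tumours to 2141 to 3107 in Apc/Tgif tumours, and which part of it was deleted was not given in the sources used here. Group names therefore rest on the labels.

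Cldn4 was 11.7 and 12.7 times as abundant in Apc and Apc/Tgif tumours as in wild-type colon, and it was the member that changed most. Cldn2 was higher in both tumour groups, Cldn15 and Cldn8 were lower in both, and Cldn8 was lower still in Apc/Tgif than in Apc tumours. Cldn3 and Ocln fell in Apc tumours and did not pass against wild-type colon in Apc/Tgif tumours, and between the tumour genotypes the difference passed for Ocln and not for Cldn3. Cldn1, Cldn7, Cldn23 and Tjp1 passed the test in none of the 3 comparisons. In Apc tumours against wild-type colon, 2 of the 10 members rose and 4 fell, where 23.9% of all genes tested were called higher and 25.2% lower. The groups of 2 members did not overlap (Cldn4 above, Ocln below), where 29.4% of all genes did not overlap. In Apc/Tgif tumours against wild-type colon, 2 members rose and 2 fell, beside 24.8% and 25.5% of all genes. Here 4 members did not overlap (Cldn2 and Cldn4 above, Cldn8 and Cldn15 below), beside 30.6% of all genes. Between the tumour genotypes, Ocln was higher and Cldn8 lower in Apc/Tgif tumours, where 7.88% and 8.76% of all genes were called, and no member's groups were apart, beside 4.07% of all genes. The counts of members thus lie near those of genes at large. Their median log2 fold change was -0.39, -0.22 and 0.00 in the 3 comparisons, beside -0.01, 0.00 and -0.01 over all genes. Both comparisons with wild-type colon use the same 5 control libraries.

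**Figure D1:**
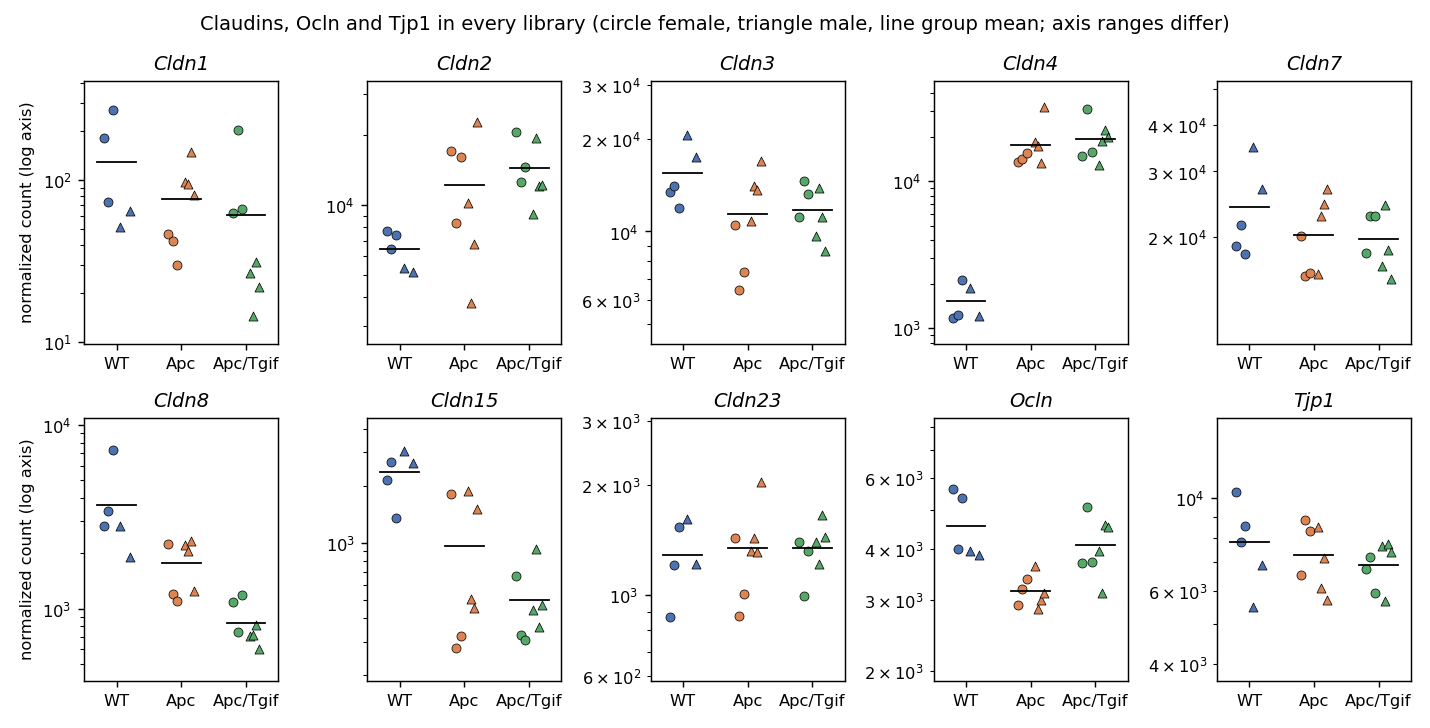
Normalized counts (log axis, its range set for each gene) of the 10 members in each of the 19 libraries, by group. Circles are females, triangles males and lines group means. Every tumour lies above every wild-type library for Cldn4, and every Apc tumour lies below every wild-type library for Ocln.

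These counts depend on how libraries are scaled. With library totals made equal, the median of all genes moved to 0.19, 0.15 and -0.06 on the log2 scale. The share of called genes that were higher went from 48.8% to 64.5%, from 49.3% to 60.4% and from 47.4% to 36.9%. Under that scaling 2 members were lower in Apc tumours in place of 4, and Ocln no longer passed between the tumour genotypes. Scaling each library to 12 genes expressed across gut epithelium moved the all-gene medians to 0.62, 0.75 and 0.11 and the shares called higher to 82.7%, 83.4% and 58.2%. Of those 12 genes themselves, 8 fell and 2 rose in each tumour group under the deposited scaling. The adhesion genes Epcam and Cdh1 are not among the 12. Their means in wild-type colon, Apc and Apc/Tgif tumours were 65964, 66661 and 66935 (Epcam), and 43316, 39955 and 39275 (Cdh1). Whether this scaling follows the share of epithelial cells was not tested. The rises of Cldn4 and Cldn2 and the falls of Cldn8 and Cldn15 against wild-type colon kept their direction under every scaling tried.

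**Figure D2:**
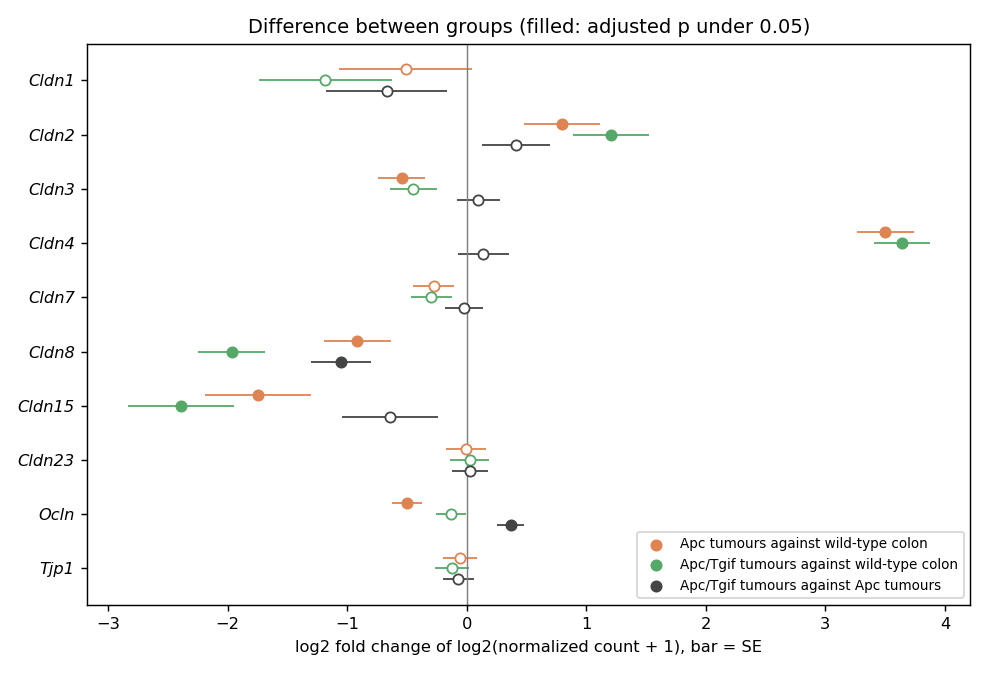
Log2 fold change of each member in the 3 comparisons, with bars of 1 SE from limma. Filled points passed an adjusted p of 0.05. Cldn4 stands at 3.50 and 3.64 against wild-type colon and at 0.14 between the tumour genotypes. Under the epithelial scaling, which is not drawn, the values of Cldn3, Cldn7, Cldn23, Ocln and Tjp1 were above 0 in both comparisons with wild-type colon.

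Markers of other cell types moved between the same groups. The summed level of the 12 epithelial genes was 466800 to 591801 normalized counts in wild-type colon, 228826 to 550943 in Apc tumours and 273984 to 396205 in Apc/Tgif tumours. All 8 smooth muscle genes fell in both tumour groups, from a summed 200911 to 299987 in wild-type colon to 13160 to 22505 in Apc tumours and 10043 to 18731 in Apc/Tgif tumours. Of 10 genes of mature colonocytes, the absorptive surface cells, 8 fell in Apc and 9 in Apc/Tgif tumours, with summed levels of 190155 to 291451, 15342 to 75044 and 4179 to 13171. All 7 crypt base genes rose in both, from 9410 to 10890 to 25475 to 41532 and 39052 to 50759. In such bulk samples, fewer cells of a type and less RNA per cell cannot be told apart, and the part of these shifts in the values below was not tested.

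Cldn4 and Cldn3 are barrier claudins whose genes lie next to each other on chromosome 5 (GRCm38). Cldn4 runs from 134945119 to 134946934 on the minus strand and Cldn3 from 134986214 to 134987472 on the plus strand, each as a single exon, with 39279 bases between them. They share a neighbourhood and had unlike values in the tumours, so the 250 bases before each annotated start are shown from RefSeq (GRCm38.p6), read 5′ to 3′ on the gene's strand. Capitals mark matches on either strand to the 7 motifs searched. The AP-1 site was searched as TGANTCA, the GC box as GGGCGG and the E-box of Snail type as CAGGTG. The TCF/LEF site was searched as CTTTGA, the TATA box as TATAAA, the CDX site as TTTATNG and the GRHL site as AACCGGTT. Other forms of these sites were not searched, such as CTTTGT for TCF/LEF, letters that the Cldn4 window holds in lower case.
Cldn4 (chr5:134946935-134947184, minus strand): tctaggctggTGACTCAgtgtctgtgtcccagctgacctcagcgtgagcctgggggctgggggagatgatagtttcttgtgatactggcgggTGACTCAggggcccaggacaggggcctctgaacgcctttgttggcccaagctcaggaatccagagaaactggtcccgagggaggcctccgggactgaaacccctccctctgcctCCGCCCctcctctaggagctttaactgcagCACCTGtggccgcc
Cldn3 (chr5:134985964-134986213, plus strand): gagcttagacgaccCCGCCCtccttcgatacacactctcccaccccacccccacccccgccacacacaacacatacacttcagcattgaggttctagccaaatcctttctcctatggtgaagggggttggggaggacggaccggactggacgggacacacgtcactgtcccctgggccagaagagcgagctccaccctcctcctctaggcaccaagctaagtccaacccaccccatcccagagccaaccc

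The Cldn4 window holds TGACTCA at -240 to -234 and again at -158 to -152, counted back from the start site, a GC box at -44 to -39 and the E-box CACCTG at -14 to -9. No match overlaps another. The AP-1 letters occur at least once in 6.7% of 32851 windows of the same length before annotated genes, and at least 2 times in 0.34%. Among the other members, the window of Cldn15, which fell in both tumour groups, also holds an AP-1 match, TGAGTCA at -214 to -208. GC boxes occur in 32.7% and the E-box in 17.2%, and at least 2 times in 16.7% and 2.06%. Among windows not shown, those of Cldn1 and Tjp1 hold 2 GC boxes each. Likewise 1 window of Cldn7 and 1 of Ocln hold 2 E-boxes each. The Cldn3 window holds 1 GC box at -236 to -231 and no other match. A match is a description of letters and shows no bound factor, and lack of a match does not show that a site is absent.

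Cldn4 had 1171, 1232, 2138, 1877 and 1205 normalized counts in the 5 wild-type libraries. In Apc tumours its lowest, median and highest values were 13389, 15483 and 31996, and in Apc/Tgif tumours 12998, 18767 and 31200. The lowest tumour therefore lay far above the highest wild-type library. Group means were 1525 ± 451 (SD, n = 5), 17763 ± 6559 (SD, n = 7) and 19430 ± 6095 (SD, n = 7), ratios to wild-type colon of 11.7 and 12.7. Cldn4 rose by 3.50 in Apc tumours (SE 0.24, limma adjusted p = 1.06e-09) and by 3.64 in Apc/Tgif tumours (SE 0.24, adjusted p = 4.03e-10), and passed in all 28 alternatives in both comparisons. The tumour genotypes differed by 0.14 (SE 0.21, adjusted p = 0.721).

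Cldn3, the neighbour, had 13397, 14039, 11950, 20530 and 17463 normalized counts in wild-type colon. Apc tumours ranged from 6459 over a median of 10778 to 16918, and Apc/Tgif tumours from 8655 over 11175 to 14560. The ranges of all 3 groups overlap, and 3 of 7 Apc tumours lie within that of wild-type colon. Cldn3 fell by 0.54 in Apc tumours (SE 0.20, limma adjusted p = 0.028), a call that 9 of 28 alternatives lost, with adjusted p from 0.00268 to 0.644. Those were quantile normalization (-0.38), equal totals (-0.34), no sex term (-0.49), the epithelial scaling (0.09) and leaving out wild-type replicate 2, 4 or 5 or Apc tumour replicate 2 or 3 (-0.54 to -0.43). In Apc/Tgif tumours the value was -0.45 (SE 0.20, adjusted p = 0.0665), which passed without Apc/Tgif replicate 2 (-0.55) or 3 (-0.53) and with the trend on transcript length removed (-0.40). Cldn3 overlaps the antisense gene Wbscr25, listed at 4.35 to 51.03 normalized counts, and the use of strand in counting was not given in the sources used here.

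Cldn2 and Cldn15 form paracellular pores for cations, and Cldn2 also passes water. Cldn2 lies on chromosome X (139800828 to 139811386, plus strand). Its upstream window is shown because it was the other member that rose, with the single match in capitals.
Cldn2 (chrX:139800558-139800807, plus strand): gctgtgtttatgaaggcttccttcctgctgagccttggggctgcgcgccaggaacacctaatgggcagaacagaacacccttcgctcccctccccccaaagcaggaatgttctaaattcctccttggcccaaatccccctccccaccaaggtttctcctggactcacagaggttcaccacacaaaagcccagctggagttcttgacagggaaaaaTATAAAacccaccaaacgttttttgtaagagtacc

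The capitals are the TATA box at -35 to -30, letters found in 12.4% of the windows. Wild-type libraries had 7705, 6481, 7447, 5366 and 5150 normalized counts of Cldn2. Apc tumours spread widely, with 17064, 8367, 16058, 10159, 3768, 6773 and 22783, and Apc/Tgif tumours ranged from 9176 over a median of 12606 to 20536. Among the Apc tumours 1 lay below and 1 within the wild-type range, while all 7 Apc/Tgif tumours lay above it. Cldn2 rose by 1.20 in Apc/Tgif tumours (SE 0.32, limma adjusted p = 0.00361), and passed in all 28 alternatives. In Apc tumours it rose by 0.79 (SE 0.32, adjusted p = 0.0442), a call at the edge that 16 of 28 alternatives lost. These were no filter, no sex term, only the groups compared, no trend or robust moderation, and leaving out any wild-type library, Apc tumour replicate 1, 3, 4 or 7, or Apc/Tgif tumour replicate 1, 6 or 7. Adjusted p over those 28 ran from 0.000458 to 0.0921 and the log2 fold change from 0.59, without Apc tumour replicate 7, to 1.42, under the epithelial scaling. The difference between the tumour genotypes was 0.41 (SE 0.29, adjusted p = 0.375).

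Cldn15 (chromosome 5, 136966616 to 136975858, plus strand) had 2141, 2665, 1354, 3052 and 2651 normalized counts in wild-type colon. The 7 Apc tumours had 1811, 279, 322, 1870, 502, 450 and 1514, and the Apc/Tgif tumours had 667, 324, 307, 443, 927, 358 and 468. Replicates 1, 4 and 7 of the Apc tumours lay within the wild-type range, the other Apc tumours and every Apc/Tgif tumour below it. Cldn15 fell by 1.75 in Apc tumours (SE 0.44, limma adjusted p = 0.0031) and fell by 2.39 in Apc/Tgif tumours (SE 0.44, adjusted p = 0.000175), and passed in all 28 alternatives of both. The difference between tumour genotypes was -0.64 (SE 0.40, adjusted p = 0.314). The summed level of 4 distal colon genes in the same order of Apc tumours was 2139, 12403, 5984, 1834, 19508, 20689 and 2080 normalized counts, against 20179 to 23898 in wild-type colon. The 3 Apc tumours highest in Cldn15 were the 3 lowest in that sum. The summed level of 5 proximal colon genes, in the same order 3934, 2558, 2023, 4790, 3594, 5537 and 3036, did not rank the tumours like Cldn15, as its highest was replicate 6. Apc tumour replicates 1, 4 and 7 were also the highest in the summed colonocyte genes (63186, 58740 and 75044 normalized counts). They were the highest too in the summed goblet cell genes (199610, 225439 and 289192). In Apc/Tgif tumours the distal sum was, in order, 7995, 8173, 22556, 17620, 8581, 18259 and 8439. Where along the colon each tumour lay was not given in the sources used here. None of these relations was tested.

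Cldn8, a barrier claudin of the distal colon that limits sodium leak, was the member that passed the test in all 3 comparisons, each time lower. It lies on chromosome 16 (88560828 to 88563183, minus strand). Wild-type libraries had 2812, 3415, 7309, 2834 and 1913 normalized counts, Apc tumours 2252, 1204, 1100, 2214, 2067, 2340 and 1242, and Apc/Tgif tumours 1082, 749, 1187, 711, 713, 815 and 605. All Apc/Tgif tumours lay below wild-type colon, and 1 of them, replicate 3, lay above the lowest Apc tumour. Means were 3657 ± 2111 (SD, n = 5), 1774 ± 561 (SD, n = 7) and 837 ± 214 (SD, n = 7). Cldn8 fell by 0.91 in Apc tumours (SE 0.28, limma adjusted p = 0.0104) and fell by 1.97 in Apc/Tgif tumours (SE 0.28, adjusted p = 7.97e-06). From Apc to Apc/Tgif tumours it fell by 1.05 (SE 0.25, adjusted p = 0.00698). The last passed in all 28 alternatives, with a range of -1.19 to -0.93 and adjusted p of 0.00212 to 0.0231. In Apc tumours against wild-type colon, the epithelial scaling alone ended the call (-0.28, adjusted p = 0.39, over alternatives 0.00491 to 0.39). Between the tumour genotypes 7 of 8 goblet cell genes, with a summed 72119 to 289192 normalized counts in Apc and 18862 to 74071 in Apc/Tgif tumours, and 7 of 10 colonocyte genes fell too. Their part in the fall of Cldn8 was not tested.

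Cldn7, which also binds the adhesion protein Epcam along the lateral membrane, was the most abundant member per length. It lies on chromosome 11 (69964779 to 69967885, plus strand). Wild-type libraries had 18987, 21577, 18022, 34954 and 26936 normalized counts, Apc tumours 15734 to 26889 with a median of 20133, and Apc/Tgif tumours 15489 to 24342 with a median of 18476. Both tumour ranges overlapped wild-type colon. Its differences were -0.27 (SE 0.17, limma adjusted p = 0.195), -0.30 (SE 0.17, adjusted p = 0.159) and -0.02 (SE 0.15, adjusted p = 0.945). Under the epithelial scaling Cldn7 passed as higher in Apc/Tgif tumours (0.45, adjusted p = 0.0351, over alternatives 0.0351 to 0.66). Epcam itself differed by 0.00 (SE 0.11), 0.01 (SE 0.11) and 0.01 (SE 0.10) on the log2 scale.

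Cldn1, a barrier claudin also studied as a target of Wnt signalling, was the scarcest member. It lies on chromosome 16 (26356642 to 26371841, minus strand). Wild-type libraries had 182, 73.1, 272, 51.7 and 64.9 normalized counts, Apc tumours 46.8, 42.0, 29.9, 97.0, 94.2, 149 and 80.6, and Apc/Tgif tumours 63.0, 203, 66.2, 26.8, 14.6, 31.2 and 21.8. All 3 ranges overlapped, and Cldn1 was higher in neither tumour group. Its differences were -0.51 (SE 0.56, limma adjusted p = 0.469), -1.18 (SE 0.56, adjusted p = 0.0846) and -0.67 (SE 0.50, adjusted p = 0.415). The second passed in 2 of 28 alternatives, without Apc/Tgif replicate 2 (-1.58, adjusted p = 0.0142) and with only the groups compared in the fit (-0.98, adjusted p = 0.0467), over a range of 0.0142 to 0.448.

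Cldn23 (chromosome 8, 35824712 to 35826559, minus strand) had nearly equal means of 1288 ± 295 (SD, n = 5), 1347 ± 372 (SD, n = 7) and 1345 ± 203 (SD, n = 7) normalized counts. Its differences were 0.00 (SE 0.17), 0.03 (SE 0.17) and 0.03 (SE 0.15), with limma adjusted p of 0.987, 0.912 and 0.925. The sign changed under equal totals (0.20 in Apc tumours), and under the epithelial scaling Cldn23 passed as higher in both tumour groups (0.63, adjusted p = 0.0153, over alternatives 0.0153 to 0.999, and 0.78, adjusted p = 0.00303, over alternatives 0.00303 to 0.995).

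Ocln, a MARVEL-domain protein of the strands that regulates the junction rather than building it, lies on chromosome 13 (100496507 to 100552718, minus strand). Wild-type libraries had 5616, 3995, 5346, 3962 and 3876 normalized counts, Apc tumours 2912, 3192, 3378, 3629, 2837, 2997 and 3109, and Apc/Tgif tumours 3690, 5076, 3716, 3954, 3123, 4585 and 4531. Every Apc tumour lay below every wild-type library, while the Apc/Tgif tumours overlapped both groups. Ocln fell by 0.50 in Apc tumours (SE 0.13, limma adjusted p = 0.00269). Equal totals (-0.30, adjusted p = 0.0872) and the epithelial scaling (0.13) ended that call, over a range of 0.000946 to 0.666. In Apc/Tgif tumours it differed from wild-type colon by -0.13 (SE 0.13, adjusted p = 0.395), and passed as higher under the epithelial scaling (0.62, adjusted p = 0.0324, over alternatives 0.0324 to 0.926). Ocln was higher by 0.37 in Apc/Tgif than in Apc tumours (SE 0.11, adjusted p = 0.0319), which 9 of 28 alternatives lost with adjusted p over all 28 of 0.012 to 0.206. These were equal totals (0.32), the epithelial scaling (0.49) and leaving out Apc tumour replicate 1, 2 or 5 or Apc/Tgif replicate 2, 4, 6 or 7 (0.32 to 0.36).

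Tjp1 (chromosome 7, 65296165 to 65527781, minus strand), the scaffold, had means of 7819 ± 1816 (SD, n = 5), 7306 ± 1265 (SD, n = 7) and 6915 ± 831 (SD, n = 7) normalized counts. Its libraries ranged from 5476 to 10340, from 5682 to 8839 and from 5671 to 7743, so that the groups overlapped throughout. Differences were -0.05 (SE 0.14), -0.12 (SE 0.14) and -0.07 (SE 0.13), with limma adjusted p of 0.778, 0.491 and 0.775. The annotation places 3 predicted genes within Tjp1, which were not analysed here. Quantile normalization (0.05), equal totals (0.15) and the epithelial scaling (0.575) turned the sign of the first.

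Levels were compared between genes per kilobase of the longest coding transcript. In wild-type colon the order of mean normalized counts per kb was Cldn7 (18049), Cldn3 (12292), Cldn2 (2112), Cldn8 (1552), Cldn15 (1247), Ocln (1125), Tjp1 (1109), Cldn4 (840), Cldn23 (697) and Cldn1 (39.6). In Apc tumours Cldn4 (9781 ± 3612, SD, n = 7) and Cldn3 (9043 ± 2981) followed Cldn7 (15209 ± 3438), and Cldn2 came next (3988 ± 2203). In Apc/Tgif tumours the first 4 were again Cldn7 (14836), Cldn4 (10699), Cldn3 (9341) and Cldn2 (4720), and Cldn8 (355) and Cldn15 (262) were the lowest but for Cldn1 (18.8). In wild-type colon, neighbours in this order from Cldn2 to Tjp1, and Cldn4 and Cldn23, differed by less than the larger SD of the pair, and so did Cldn4 and Cldn3 in both tumour groups. As a share of the summed level per kb of the 8 claudins, Cldn4 made up 2.33% ± 0.81 (SD, n = 5) of wild-type colon, 24.3% ± 4.31 of Apc tumours and 26.0% ± 5.71 of Apc/Tgif tumours (SD, n = 7 each). The lowest tumour share was 18.1% and the highest wild-type share 3.76%. The shares of Cldn3 were 33.3%, 22.3% and 22.8%, and those of Cldn7 48.4%, 38.4% and 36.3%. A share falls when another gene of the sum rises, so these falls do not show lower levels.

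**Figure D3:**
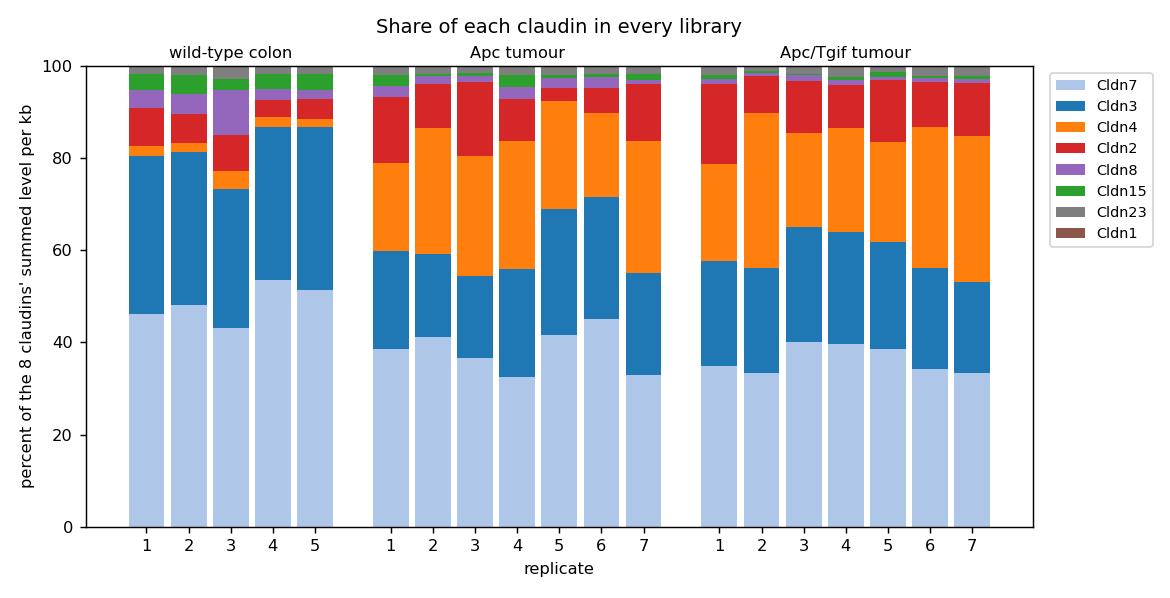
Percent of the 8 claudins' summed normalized counts per kb held by each claudin, 1 bar per library. Cldn4 takes 1.69 to 3.76% of wild-type bars, 18.1 to 28.8% of Apc tumours and 20.5 to 33.7% of Apc/Tgif tumours. Within Apc tumours Cldn2 takes 3.02 to 16.1%.

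The effect of genotype was also compared between the sexes. The sex difference, the effect in males minus that in females, was tested for every gene. Between the tumour genotypes, 2 of the 10 members, Cldn1 and Cldn3, were called, beside 23.6% of all genes. The count of members thus lies near that of genes at large. Against wild-type colon, limma called no member in Apc tumours (2 at an unadjusted p under 0.05, 0 called without trend and robust moderation, 0.0108% of all genes called) or in Apc/Tgif tumours (3, 0 and 3.4% of all genes).

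Cldn1 in Apc tumours had 29.9 to 46.8 normalized counts in the 3 females and 80.6 to 149 in the 4 males, and in Apc/Tgif tumours 63.0 to 203 in the 3 females and 14.6 to 31.2 in the 4 males. The sexes did not overlap in either tumour group and stood in opposite order. The sex difference was -3.38 (SE 0.63, limma adjusted p = 0.0019). In wild-type colon Cldn1 was at 73.1 to 272 in females and 51.7 and 64.9 in males, the order of the Apc/Tgif tumours. Its sex difference in Apc tumours against wild-type colon was 2.76 (SE 0.69, adjusted p = 0.139), which did not pass. In the tumour groups Cldn3 stood in the same order as Cldn1, with the sexes apart in Apc tumours and overlapping in Apc/Tgif tumours. Its means were 8098 ± 2103 in females (SD, n = 3) and 13850 ± 2514 in males (SD, n = 4) of the Apc tumours, and 13005 ± 1709 and 10826 ± 2241 in those of the Apc/Tgif tumours. In wild-type colon Cldn3 was at 11950 to 14039 in females and 17463 and 20530 in males, the order of the Apc tumours. Between the tumour genotypes the sex difference of Cldn3 was -1.07 (SE 0.26, adjusted p = 0.00933). The sex differences of Cldn1 and Cldn3 between the tumour genotypes passed whichever library was left out. That of Cldn3 did not pass under the epithelial scaling (-0.19, adjusted p = 0.58, range over alternatives 0.00275 to 0.58). The same scaling moved the median sex difference of all genes in this contrast from -0.02 to 0.86. Cldn7, at -0.56 (SE 0.26, adjusted p = 0.129), and Tjp1, at 0.31 (SE 0.23, adjusted p = 0.356), did not pass.

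**Figure D4:**
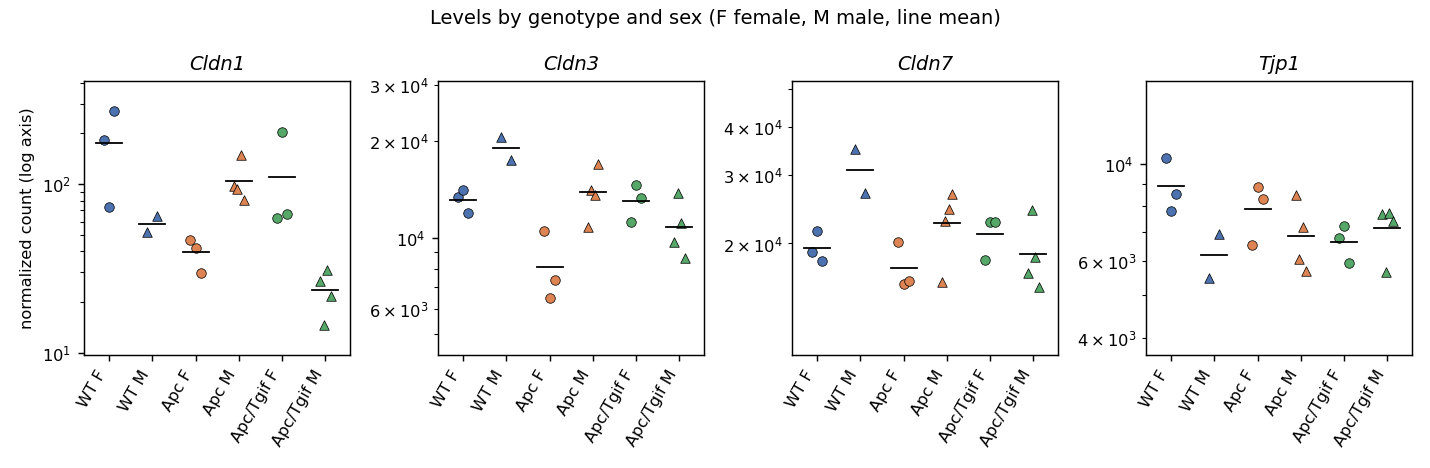
Normalized counts (log axis) of Cldn1, Cldn3, Cldn7 and Tjp1 by genotype and sex, with lines at means. For Cldn1, males lie above females in Apc tumours and below them in Apc/Tgif tumours and in wild-type colon. Wild-type colon has 3 females and 2 males.

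Libraries also differed in the balance of short and long transcripts, which bears on these members because Cldn3 (1259 bases) and Cldn7 (1335 bases) are short and Tjp1 (7049 bases) is long. The mean log2 level of genes of at most 1500 bases minus that of genes of at least 6000 bases, relative to all libraries, was -0.56 to -0.22 in wild-type females and 0.04 and 0.26 in wild-type males. It was -0.08 to 0.13 and -0.19 to 0.44 in female and male Apc tumours, and 0.05 to 0.20 and -0.26 to 0.455 in female and male Apc/Tgif tumours. With the trend on length removed, an alternative added after the data were seen, the sex differences of Cldn1 (-3.44) and Cldn3 (-0.92) still passed. Over the 19 libraries, after group and sex means were removed, Cldn3 and Cldn7 moved together (Pearson r = 0.88), Ocln moved with Tjp1 (r = 0.705), and Tjp1 moved against Cldn7 (r = -0.855) and Cldn3 (r = -0.72). These pairs share libraries and their length balance, and the values are descriptions.

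The genes most like each member were sought by the same r over the 19 libraries. The search covered 12253 genes that passed the filter on low values and had a mean of at least 100 normalized counts. Genes with clone or predicted names, pseudogenes by name, immunoglobulin variable genes and mitochondrial genes were left out of it. Cldn15 was most like Fabp2, an intestinal fatty acid binding protein of absorptive cells (r = 0.931), followed by Apol10a and Slc3a1 (0.897 and 0.893). Cldn2 was most like the gap junction gene Gjb1 (0.867), then Fhl2 (0.865) and the crypt base gene Smoc2 (0.859). Cldn4 came nearest to Oaz2 (0.855), Zfp330 (0.854) and Gtf2ird1 (0.838), and Cldn8 to St6galnac1 (0.813), Ppp1r3c (0.79) and Cmtm6 (0.777). For Cldn1 these were Thra, Tgfbr3 and Sbf2 (0.932 to 0.949), and for Cldn23 Ccdc71l, Arc and Tbc1d10b (0.741 to 0.789). Cldn3 lay with Chmp6, Eif6 and Yipf3 (0.962 to 0.966) and Cldn7 with Ndufa8, Lamtor1 and Cox8a (0.96 to 0.984). Ocln lay with Fbxw11, Tmem106b and Mib1 (0.911 to 0.923) and Tjp1 with Btbd7, Lmbrd2 and Kmt2e (0.945 to 0.967).

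Other genes of the junction were counted by list, to be read beside the shares of all genes called higher and lower: 23.9% and 25.2% in Apc tumours, 24.8% and 25.5% in Apc/Tgif tumours, and 7.88% and 8.76% between the genotypes. Of 15 other claudins in the table, 7 passed the filter. Cldn6 and Cldn18 were higher in both tumour groups, and Cldn14 fell in Apc tumours. With values at or near 0 in wild-type colon, Cldn6 and Cldn18 passed that filter through tumour libraries alone and could only come out higher, so their levels are given as a description. Cldn6, a claudin of embryonic epithelium, had 0 to 0.82 normalized counts in wild-type colon, 15.2 to 301 in Apc tumours and 14.3 to 240 in Apc/Tgif tumours. Cldn18, a claudin of stomach and lung, was listed at 0 throughout wild-type colon, at 5.38 to 116 in Apc tumours and at 4.36 to 168 in Apc/Tgif tumours. Mean normalized counts of Cldn14 were 218 ± 30.0 (SD, n = 5) in wild-type colon, 57.7 ± 34.8 in Apc and 153 ± 110 in Apc/Tgif tumours (SD, n = 7 each). It fell by 2.15 in Apc tumours (SE 0.42, limma adjusted p = 0.000299) and was higher by 1.40 in Apc/Tgif than in Apc tumours (SE 0.38, adjusted p = 0.0148).

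At the corners where 3 cells meet, angulins recruit tricellulin (Marveld2). Of these 5 tricellular and MARVEL genes, 1 rose and 2 fell in Apc tumours, 2 rose and 3 fell in Apc/Tgif tumours, and 1 was higher and 1 lower between the genotypes. The angulins parted: Lsr rose by 0.43 (SE 0.11, limma adjusted p = 0.00332) and 0.85 (SE 0.11, adjusted p = 2.99e-06), while Ildr1 fell, with -1.16 (SE 0.20, adjusted p = 7.43e-05) and -1.36 (SE 0.20, adjusted p = 9.69e-06). Between the genotypes Lsr was higher by 0.42 (SE 0.10, adjusted p = 0.00696), with 11058 to 16454 normalized counts in Apc/Tgif and 7877 to 10752 in Apc tumours, which do not overlap. Ildr2 was lower, at -1.32 (SE 0.33, adjusted p = 0.00925). The Lsr call between the genotypes was lost under the epithelial scaling (0.54).

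Of 14 scaffold genes, 4 rose and 4 fell in Apc tumours and 5 and 4 in Apc/Tgif tumours, with 1 in each direction between them. Mpdz, a multi-PDZ scaffold that binds claudin tails, fell, with log2 fold changes of -1.48 and -2.36 (SE 0.20 each, limma adjusted p = 4.75e-06 and 1.06e-08). Between the genotypes it fell by 0.88 (SE 0.18, adjusted p = 0.0022), from 131 to 230 down to 78.3 to 122 normalized counts. Amot rose by 1.71 and 2.14 (SE 0.23 each). Tjp3 was higher by 0.38 in Apc/Tgif than in Apc tumours (SE 0.11, adjusted p = 0.026). That call was lost under quantile normalization (0.35), under equal totals (0.33), with only the groups compared (0.38), and without Apc tumour replicate 2, 3 or 4 or Apc/Tgif replicate 1 or 3 (0.33 to 0.35). The Mpdz call between the genotypes was lost under the epithelial scaling (-0.75).

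No junction adhesion molecule of 7 rose in Apc tumours and 3 fell, while 2 rose and 4 fell in Apc/Tgif tumours. Jam3 fell, with -1.47 and -1.63 (SE 0.15 each, limma adjusted p = 2.57e-07 and 4.5e-08), and so did Clmp, with -1.03 and -1.99 (SE 0.25 each, adjusted p = 0.00181 and 1.51e-06). F11r (JAM-A) was higher by 0.39 in Apc/Tgif than in Apc tumours (SE 0.10, adjusted p = 0.00782). Among 11 polarity genes, 2 rose and 3 fell in Apc tumours and 2 and 2 in Apc/Tgif tumours. Llgl1 rose by 1.06 and 0.99 (SE 0.09 each, adjusted p = 3.9e-08 and 5.88e-08). Pard6g, a subunit of the Par complex, had 216 to 305 normalized counts in wild-type colon, 521 to 832 in Apc tumours and 259 to 561 in Apc/Tgif tumours, and was lower between the genotypes, at -0.92 (SE 0.17, adjusted p = 0.000896). The epithelial scaling ended the calls of F11r (0.51) and Pard6g (-0.80) between the genotypes and that of Clmp in Apc tumours (-0.40).

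Among 10 claudin partners and regulators, 2 rose and 3 fell against wild-type colon in each tumour group. Spint1, an inhibitor of matriptase, fell, with log2 fold changes of -0.88 and -0.59 (SE 0.15 each, limma adjusted p = 5.9e-05 and 0.00235), but under the epithelial scaling the first no longer passed (-0.25) and the second turned to 0.16. Rab13, a GTPase that sorts junction proteins, was lower in Apc/Tgif than in Apc tumours, at -0.55 (SE 0.10, adjusted p = 0.00102), a call that the epithelial scaling ended (-0.43).

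Of 12 transcription factors of epithelial and junction genes, 1 rose and 6 fell in Apc tumours and 0 rose and 6 fell in Apc/Tgif tumours. The median log2 fold change of the list was -0.56 and -0.78, beside -0.01 and 0.00 over all genes. Hnf4a fell, with -1.40 and -1.09 (SE 0.15 each, limma adjusted p = 4.18e-07 and 6.25e-06), as did Klf4, with -2.20 and -2.70 (SE 0.40 each), and Cdx1, with -1.43 and -1.27 (SE 0.30 each). Snai1, the gene of a repressor of claudins, went from 79.0 to 145 normalized counts in wild-type colon to 177 to 392 in Apc tumours and 96.5 to 262 in Apc/Tgif tumours, and was lower between the genotypes, at -0.77 (SE 0.25, adjusted p = 0.0385). The Snai1 call was lost under quantile normalization (-0.63), under the epithelial scaling (-0.65), with only the groups compared (-0.77), and without Apc tumour replicate 1, 4, 6 or 7 or Apc/Tgif replicate 3, 4, 6 or 7 (-0.75 to -0.64). The epithelial scaling also ended the call of Hnf4a in Apc/Tgif tumours (-0.34). Of 15 adherens junction and desmosome genes, 6 rose and 2 fell in Apc tumours and 7 and 3 in Apc/Tgif tumours. Ppl (periplakin) rose by 1.68 and 1.88 (SE 0.16 each) and Evpl (envoplakin) fell, with -1.22 and -1.37 (SE 0.22 each), the first no longer past the threshold under the epithelial scaling (-0.59). Jup (plakoglobin) was higher by 0.61 in Apc/Tgif than in Apc tumours (SE 0.09, adjusted p = 0.000177), with ranges that do not overlap, 20151 to 24950 over 11665 to 19240 normalized counts.

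**Figure D5:**
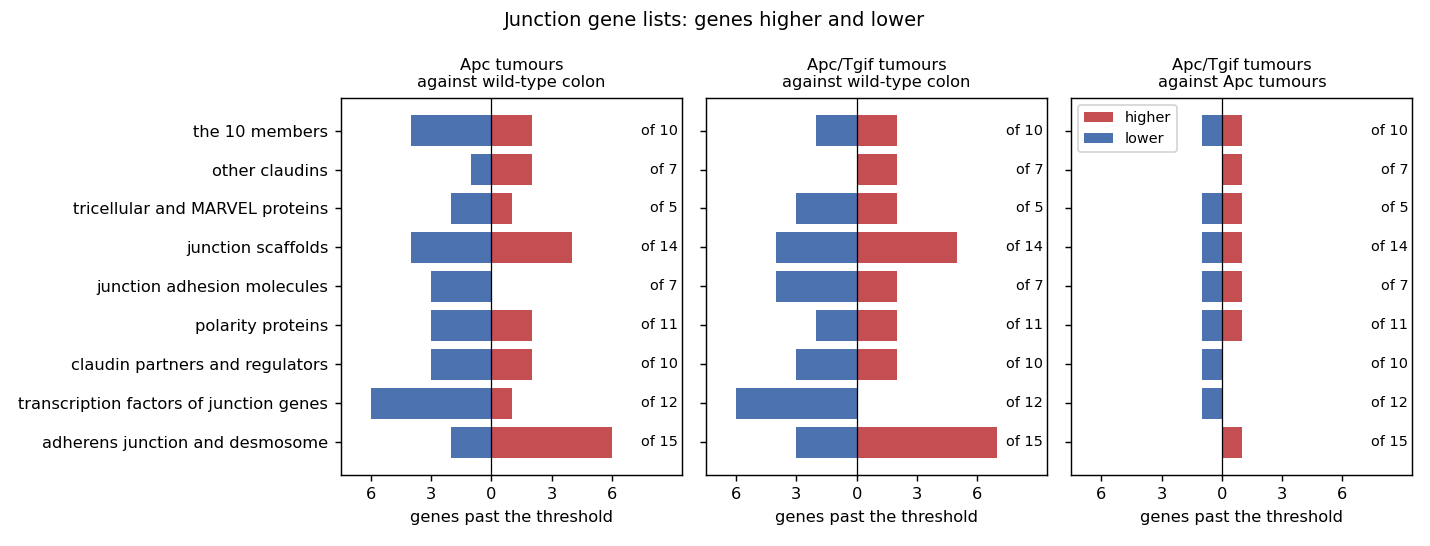
Number of genes past the threshold, higher (right) and lower (left), in the 10 members and 8 wider lists, with the number tested at the right edge. The 2 other claudins shown as higher against wild-type colon are Cldn6 and Cldn18, which passed the filter through tumour libraries alone and could only come out higher. In Apc tumours 2 members are higher and 4 lower, and between the tumour genotypes no list has more than 1 gene in either direction.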

How the data were processed

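RNA-seq of 19 mouse libraries was used, poly-A selected and read as single ends of 75 bases, per the labels' protocols. The deposited values are normalized counts, a signal that the authors made per gene and library with Salmon and DESeq2 on GRCm38 (mm10), as the submitters' processing notes name them. Versions, annotation and use of strand were not given in the sources used here. Raw depth is not in the table, and totals of 34417808 to 44732717 normalized counts were the measure used.

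Genes with at least 10 normalized counts in at least 5 libraries were kept (18445 of 32694). Differences were tested on log2(normalized count + 1) with limma 3.58.1 in R 4.3.3, two-sided, with trend and robust moderation and terms for group and sex over all 19 libraries. Adjusted p is Benjamini and Hochberg's, over all genes tested, with a threshold of 0.05. Sex differences came from a fit in which each sex of each group had its own mean. The fit was tested on simulated data. Folds understate changes of low genes.

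The members and lists were chosen with earlier results of these data known. Named genes were all members, up to 3 genes of smallest p per junction list and comparison, and the 3 genes most like each member; a few of these are not reported here. Epcam was named because Cldn7 binds it and Cdh1 as an adherens junction gene, both after their values were seen. Tgif1 and Tgif2 were named as targeted genes. Alternatives were a pseudocount of 5, no filter, 3 other scalings, no sex term, only the groups compared, no trend or robust moderation, removal of a trend on transcript length (added after the data were seen) and leaving out each library. Lengths and positions are from GENCODE M21 (GRCm38), known for 86.7% of tested genes. Upstream sequences matched 8 members in RefSeq (GRCm38.p6), not Cldn8 or Cldn23. The labels say that libraries come from separate mice. Replicates share no number across groups by label, so no pairing was examined.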

Additional observations from a re-analysis of the deposited data

Results flagged for a closer look

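Cldn4 in Apc tumour replicate 7, at 31996 normalized counts, stood apart from the other 6 Apc tumours, which lay between 13389 and 18425. Of 30 combinations of a member and a group, it was the 1 with such a gap, and chance flags about 1 in 20 groups. Leaving that library out kept the rise of Cldn4 over wild-type colon past the threshold.

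Among 30 sex differences, the 2 that passed limma's adjusted threshold concerned the contrast of the tumour genotypes. For Cldn1 the effect in males minus that in females was -3.38 on the log2 scale (adjusted p = 0.0019), with 3 females and 4 males in each tumour group. For Cldn3 it was -1.07 (adjusted p = 0.00933). Between the tumour genotypes 23.6% of all genes tested had a sex difference called.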

How the results depend on the processing

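Of the 30 member values (10 genes in 3 comparisons), a pseudocount of 5 changed no direction or call. Without a filter, with no sex term, with only the groups compared, or without trend and robust moderation, 1 member was higher in Apc tumours in place of 2, since Cldn2 no longer passed. With no sex term, and under quantile normalization, Cldn3 no longer passed as lower in Apc tumours. Equal totals left 2 members lower in Apc tumours and 0 higher between the genotypes. The epithelial scaling left 1 lower and made 3 higher in Apc tumours, made 5 higher in Apc/Tgif tumours and 0 higher between the genotypes, and called 1559 genes between them in place of 3068. The scale of the libraries thus limits small differences.

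Signs turned as follows. In Apc tumours, the epithelial scaling gave 0.12 (Cldn1), 0.086 (Cldn3), 0.36 (Cldn7), 0.63 (Cldn23), 0.13 (Ocln), 0.575 (Tjp1), 0.13 (Marveld3) and 0.22 (Igsf5). Equal totals gave 0.20 (Cldn23) and 0.15 (Tjp1), no sex term 0.051 (Cldn23) and quantile normalization 0.046 (Tjp1). In Apc/Tgif tumours, the epithelial scaling gave 0.30 (Cldn3), 0.45 (Cldn7), 0.62 (Ocln), 0.63 (Tjp1), 0.0035 (Cldn14), 0.20 (Igsf5), 0.0087 (Prkcz), 0.31 (Crb3) and 0.16 (Spint1). Equal totals gave 0.0185 (Ocln) and 0.028 (Tjp1), and quantile normalization -0.063 (Cldn23). Between the genotypes, the epithelial scaling gave 0.099 (Cldn7) and 0.052 (Tjp1), equal totals -0.0199 (Cldn23) and the length trend 0.012 (Cldn7). Beyond the shift that each scaling puts on all genes, the cause was not tested.

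Leaving out 1 of 19 libraries at a time, 1 to 2 members were higher in Apc tumours, 2 to 4 lower in Apc/Tgif tumours (4 without Apc/Tgif replicate 2) and 0 to 1 higher between the genotypes. Cldn3 no longer passed as lower in Apc tumours without wild-type replicate 2, 4 or 5 or Apc tumour replicate 2 or 3. Members with a sex difference numbered 0 to 1 in Apc and 0 to 2 in Apc/Tgif tumours against wild-type colon. Ranges across 0 were -0.10 to 0.096 (Cldn23) and -0.17 to 0.034 (Tjp1) in Apc tumours, -0.071 to 0.12 (Cldn23) in Apc/Tgif tumours, and -0.0045 to 0.19 (Cldn3), -0.0082 to 0.29 (Cldn4), -0.096 to 0.054 (Cldn7) and -0.041 to 0.12 (Cldn23) between the genotypes.

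No paired analysis was possible because the labels give no replicate numbers shared between groups. The raw depth behind each value is not in the table, so no counting interval is given.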
